A study of Mus musculus with 3 samples.

Results

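Gas5, Snhg1, Snhg3, Snhg5, Snhg6, Snhg8, Snhg12 and Snhg15 are long noncoding genes that host small nucleolar RNAs (snoRNAs). They were taken from the deposited gene and transcript tables by gene symbol, which found all 8 of 8 among 55536 annotated genes, of which 10155 are long noncoding. The annotation gives the 8 genes 76 isoforms and places 30 snoRNA genes inside them on the same strand. The RNA came from the chromatin of bone marrow-derived macrophages, phagocytes grown in culture from marrow progenitors, of the mouse strain C57BL/6J. The cells had been given 100 ng/ml Lipid A (the lipopolysaccharide anchor that Toll-like receptor 4 detects) for 12 h, kept without it for 12 h, and given 100 ng/ml Lipid A again for 120 min. All 3 libraries are of this 1 condition, so the values are levels, and how the genes respond to Lipid A cannot be read from them. The labels call them biological replicates 1, 2 and 3 and do not say that they came from separate animals, so the spread between them may be technical. In bulk RNA of this kind, fewer cells of a type and less RNA per cell cannot be told apart.

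Many snoRNAs, though not all, guide the chemical modification of ribosomal RNA, methylation of the ribose for the C/D box class and pseudouridylation for the H/ACA box class. In mammals most snoRNAs lie in introns of a host gene, are cut out of the excised intron and are kept from decay by a small set of core proteins. The spliced exons of many noncoding hosts enter translation without coding for a stable protein and are degraded by nonsense-mediated decay, and Gas5 is the best known of them, named for its build-up in growth-arrested cells. Several hosts begin with a 5′ terminal oligopyrimidine (TOP) tract, a run of C and T at the start of the transcript that ties translation to growth signals. Chromatin-bound RNA holds transcripts still being made, in which introns and the snoRNAs inside them can still be present.

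Levels are in TPM, a transcript abundance scaled by length and by library total, which allows comparison between genes. Total expected counts were between 10293545 and 17820066 per library, lowest in replicate 1. The mean fragment length implied by the effective transcript lengths was 151 bases in replicate 1, against 258 and 252 in replicates 2 and 3. Between 53.8% and 65.8% of all TPM, most in replicate 1, lay outside annotated genes of at least 200 bases in effective length. That part holds shorter genes together with numeric and spike-in rows of any length. RNA input was 1 µg, 250 ng and 500 ng for replicates 1, 2 and 3. All 10 macrophage markers stood at 1 TPM or more throughout, and their summed TPM was 1051 to 1558. Of 13 markers of T cells, B cells, neutrophils, erythroid cells, fibroblasts and endothelium, 0 did so, and both erythroid globin genes were at 0 counts.

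The starts of the host genes are shown first because several snoRNA hosts begin with a TOP tract. RefSeq promoter sequence (build GRCm38.p6, 250 bases before to 50 after a start) was at hand for 7 of the 8 genes, all but Snhg6. A TOP-like start, defined as a C followed by at least 4 more bases that are C or T and beginning within 5 bases of the start on the strand of the gene, was found for 3 of 7, namely Snhg3, Snhg8 and Snhg12, and for 18.3% of all 32851 promoters in the table. The lines below give 30 bases on either side of the RefSeq start of those 3 genes and of Gas5, with the TOP-like tract in capitals. Snhg8 lies at chr3:123508307-123508366 on the minus strand, Snhg12 at chr4:132308648-132308707 on the plus strand, Snhg3 at chr4:132353657-132353716 on the minus strand and Gas5 at chr1:161034571-161034630 on the plus strand.
Snhg8: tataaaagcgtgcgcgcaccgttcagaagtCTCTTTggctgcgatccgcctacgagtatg
Snhg12: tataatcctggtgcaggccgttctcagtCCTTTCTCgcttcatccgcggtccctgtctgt
Snhg3: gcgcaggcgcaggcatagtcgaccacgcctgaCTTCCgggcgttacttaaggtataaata
Gas5: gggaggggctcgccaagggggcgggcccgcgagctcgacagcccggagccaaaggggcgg
The RefSeq start of Gas5 lay 179 bases inside the GENCODE gene, whose isoforms begin at several places, and no tract of this form stood within 5 bases of it. Gas5-218, the isoform with the largest share of Gas5 TPM, begins 744 bases inside the gene, and its start was not searched. Of 3 further motifs searched on both strands over the same 300-base promoters, TATAAA was in 4 of 7 (Snhg1, Snhg3, Snhg5 and Snhg8) and in 13.6% of all promoters. The E-box CACGTG was in 1 of 7, Snhg15, and in 7.15% of all, and the ETS-type motif CCGGAAG was in 1 of 7, Snhg3, and in 8.86% of all. In Snhg3 the CCGGAAG match lies on the opposite strand and takes in the TOP-like tract shown above. The TATAAA match of Snhg8 opens the line shown for it, while the TATAAA in the line of Snhg3 lies near its end, after the start. A match describes letters only.

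All 8 host genes were expressed, that is, at 1 TPM or more in each of the libraries. Over annotated long noncoding genes the share was 10.8% (1094 of 10155), and over the 68 long noncoding genes that hold a snoRNA on their strand it was 38.2% (26 genes, the 8 included). The median host gene stood at 3.77 ± 0.64 on the log2(TPM + 0.1) scale (mean ± SD, n = 3 libraries). On the same scale the median expressed long noncoding gene stood at 2.24 ± 0.20, the median expressed protein-coding gene at 3.58 ± 0.24, and the median of the 18 other expressed noncoding hosts at 2.94 ± 0.51. TPM depends on what else is in the library. Rescaled over genes of at least 200 bases of effective length outside the mitochondrial chromosome, the median host gene stood at 5.08. The mean TPM of Gas5 was then 422 in place of 175.

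Gas5, the host of 10 annotated snoRNA genes on chromosome 1 (mm10, chr1:161034422-161038539, plus strand), had a TPM of 103 in replicate 1, 240.3 in replicate 2 and 181 in replicate 3, a mean of 175 ± 68.7 (SD, n = 3). These values rest on 1250, 2957 and 2518 expected counts. Gas5 alone carried 57.9%, 57.6% and 50.1% of the TPM of the 8 genes together, and its mean lay above 98.9% of expressed long noncoding genes. The read-based tables, made from the reads directly, gave 100.1, 144 and 122 TPM. Both sets put replicate 1 lowest and replicate 2 highest, and they differ most in replicate 2.

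Snhg8, a compact gene of 853 bases that holds 1 H/ACA snoRNA (chr3:123507552-123508404, minus strand), was next at 25.9, 52.8 and 68.0 TPM in replicates 1, 2 and 3, on 142, 336 and 408 counts. Snhg1, which holds 8 snoRNA genes (chr19:8723475-8726443, plus strand), had 15.6, 49.2 and 37.1 TPM on 258, 876 and 817 counts. Its replicate 1 value lay at 0.361 of the mean of the other libraries, the lowest such ratio of the 8 genes in these tables, while its read-based ratio was 0.657. Snhg15, the host of Snora9 (chr11:6525591-6528760, minus strand), had 7.41, 15.5 and 22.2 TPM. Snhg12, the host of 5 snoRNA genes (chr4:132308623-132311024, plus strand), had 8.90, 17.4 and 15.4 TPM. These 4 genes all had their lowest value in replicate 1, while the highest was in replicate 2 for Snhg1 and Snhg12 and in replicate 3 for Snhg8 and Snhg15.

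The remaining 3 genes were at the lower end of the 8. Snhg6, the host of Snord87 (chr1:9941959-9944118, minus strand), had 6.48, 15.4 and 14.8 TPM on 43, 101 and 115 counts. Snhg5, the host of Snord50a and Snord50b (chr9:88521050-88522929, minus strand), had 6.60, 14.6 and 14.4 TPM on 58, 148 and 163 counts. Snhg3, the host of the Snora73 pair (chr4:132348014-132353686, minus strand), had 4.16, 12.0 and 8.21 TPM on only 17.2, 45.3 and 37.1 counts. Replicates 2 and 3 were nearly equal for Snhg5 and Snhg6, and replicate 1 was lowest for all 3 genes.

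**Figure D1:**
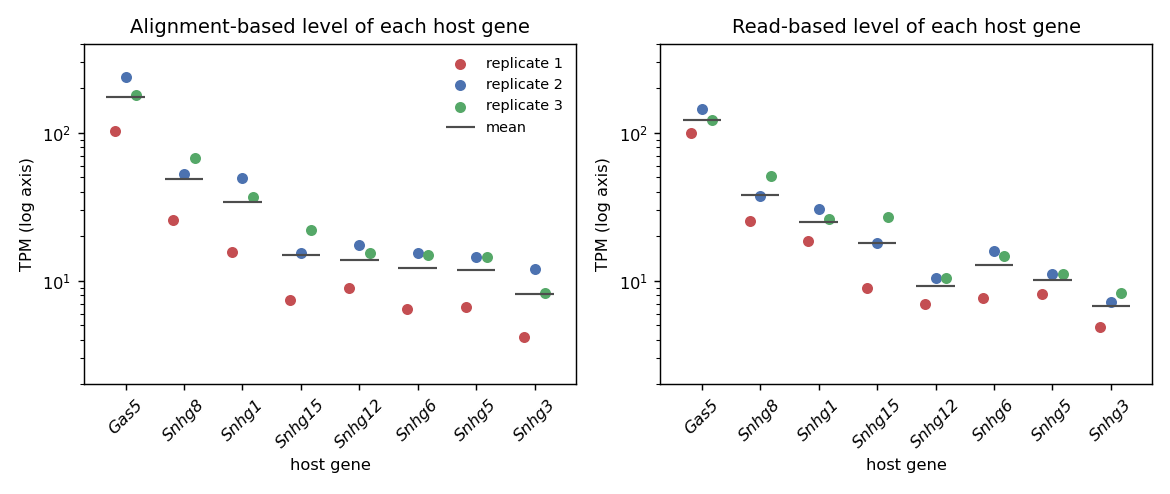
TPM of each host gene in each library on a log axis, from the alignment-based tables (left) and the read-based tables (right), with the mean of the 3 libraries as a line. Gas5 stands apart at 103 to 240.3 TPM in the alignment-based tables, and replicate 1 is the lowest point of each of the 8 genes in both panels.

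In the order of mean TPM the genes ran Gas5, Snhg8, Snhg1, Snhg15, Snhg12, Snhg6, Snhg5 and Snhg3. Of the 7 pairs of neighbours in that order, 5 had the same sign of difference in all 3 libraries. Gas5 exceeded Snhg8 by 1.86 ± 0.40 on the log2(TPM + 0.1) scale (SD, n = 3), and this was the 1 pair whose ranges did not overlap. Snhg1 exceeded Snhg15 by 1.15 ± 0.47, Snhg5 exceeded Snhg3 by 0.58 ± 0.27 and Snhg8 exceeded Snhg1 by 0.57 ± 0.41, each with overlapping ranges. Snhg12 exceeded Snhg6 by 0.45, 0.17 and 0.05 in replicates 1, 2 and 3, a mean of 0.23 ± 0.21, also with overlapping ranges. Snhg15 and Snhg12 differed by 0.04 ± 0.43 and Snhg6 and Snhg5 by 0.03 ± 0.05, with signs that changed between libraries. An exact two-sided sign-flip test over the 3 libraries cannot give a p below 0.25, and the 7 pairs gave p from 0.25 to 1 and Benjamini-Hochberg adjusted p from 0.35 to 1. The test could therefore not call any pair at this number of libraries.

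Replicate 1 was the lowest library for 8 of 8 genes by TPM. The background share was large, since 55.9% of expressed long noncoding genes and 63.6% of expressed protein-coding genes were also lowest there. By CPM, counts scaled to the library total, after TMM normalisation (TMM CPM), which reduces the overall shift between libraries, it was again 8 of 8, against 34.1% of expressed long noncoding genes. The ratio of replicate 1 to the mean of replicates 2 and 3 ran from 0.361 (Snhg1) to 0.544 (Snhg12) in TPM and from 0.511 (Snhg1) to 0.766 (Gas5) in TMM CPM. The median expressed long noncoding gene had a ratio of 0.774 in TPM and 1.10 in TMM CPM, and the median expressed protein-coding gene 0.768 and 0.971. On the log2 scale the median host gene was at -1.21 in TPM and -0.58 in TMM CPM, where the median expressed long noncoding gene was at -0.36 and 0.12. The read-based TPM gave ratios of 0.397 (Snhg15) to 0.750 (Gas5). For 6 of the 8 genes the upper end of the replicate 1 interval in the authors' gene table lay below the lower ends in both other libraries, the exceptions being Snhg3 and Snhg12, and this was so for 20% of expressed long noncoding genes (219 of 1094).

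Other noncoding hosts were also low in replicate 1. Of the 18 other expressed long noncoding genes with a snoRNA inside, 15 were lowest in replicate 1 by TPM and 13 by TMM CPM, with median ratios of 0.487 and 0.770. Depth, fragment length, RNA input and the TPM share outside annotated genes of at least 200 bases differ between replicate 1 and the other libraries. Their part in this pattern was not tested.

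**Figure D2:**
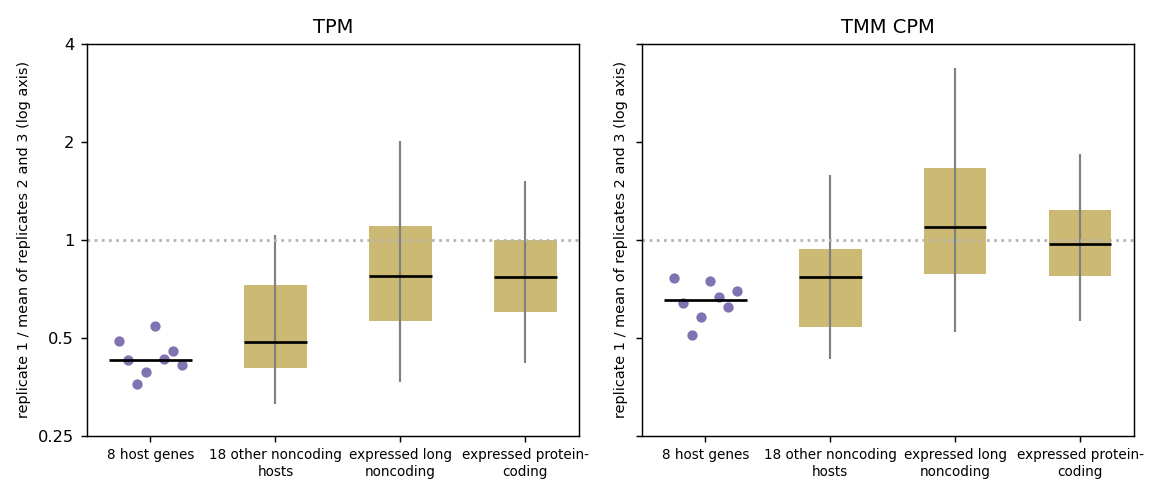
Ratio of replicate 1 to the mean of replicates 2 and 3 on a log axis, in TPM (left) and TMM CPM (right). Points are the 8 host genes with their median as a line; for the other groups boxes span the middle 50% of genes, thin lines run from the 5th to the 95th percentile and black lines are medians. The host genes lie at 0.361 to 0.544 in TPM and at 0.511 to 0.766 in TMM CPM, below the medians of expressed long noncoding and protein-coding genes in both.

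Most of the spread between libraries was that of replicate 1 against the others. The SD of log2(TMM CPM + 0.5) over the 3 libraries had a median of 0.35 over the host genes, beside 0.26 over 12031 expressed genes and 0.32 over expressed long noncoding genes. It was largest for Snhg1 (0.55) and Snhg15 (0.52) and smallest for Gas5 and Snhg12 (0.24 each). Between replicates 2 and 3 alone the median was 0.13 for the host genes, 0.13 for expressed genes and 0.17 for expressed long noncoding genes. Snhg15 remained at 0.48 in that pair, while Snhg1 was at 0.026.

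The isoform tables describe which form of each host RNA the reads were assigned to. An isoform typed as retained intron keeps at least 1 intron that other isoforms splice out, and 38 of the 76 isoforms have this type, all in Gas5, Snhg1, Snhg5 and Snhg8. In Gas5, where 20 of 25 isoforms are of this type, they took 81.1%, 90.3% and 93.0% of the gene's TPM in replicates 1, 2 and 3. In Snhg1 (14 of 18 isoforms) the shares were 84.8%, 80.3% and 78.2%, and in Snhg5 (3 of 6 isoforms) 74.5%, 79.8% and 81.2%. In Snhg8 (1 of 3 isoforms) they were 41.1%, 64.6% and 43.2%, so that replicate 2 stands above the others. The median of the 4 genes was 79.2% ± 1.21 (SD, n = 3), beside 47.1% ± 1.53 over 6046 expressed genes that have both kinds of isoform and 49.8% ± 6.08 over the 70 long noncoding ones.

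Retained-intron isoforms held over 50% of TPM in all 3 libraries in 3 of these 4 genes, against 33.3% of the 6046 genes. More isoforms of Gas5 and Snhg1 are annotated as retained intron (80% and 77.8% of their isoforms) than for the median gene of that background (33.3%), and the part this plays was not tested. Long isoforms weigh more by counts, and as a share of expected counts the values were 95.9% for Gas5, 94.1% for Snhg1, 79.3% for Snhg5 and 68.2% for Snhg8. The read-based TPM gave 89.2%, 73.4%, 77.6% and 47.0%.

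The single isoforms that led were long, largely unspliced forms in Gas5 and Snhg1. Gas5-218, a retained-intron isoform of 2556 bases in 4 exons with 6 snoRNAs lying whole in its exons, took 16.8% ± 2.07 of Gas5 TPM and 45.4% of its counts. Gas5-222 (1614 bases, 3 snoRNAs whole) took 12.3% of TPM and 19.9% of counts, and Gas5-214 (629 bases) 8.33% and 3.96%, with 10.7% of read-based TPM. No other isoform of the 25 passed 10% on average in either quantification. Closest was Gas5-224, named after its values were seen, a spliced form of 12 exons in 502 bases with no snoRNA, at 15.5%, 8.12% and 5.36% of TPM in replicates 1, 2 and 3. In Snhg1, Snhg1-215, with 2728 of the gene's 2969 bases in 2 exons and 7 snoRNAs whole, took 28.1% ± 1.43 of TPM and 56.2% of counts. The fully spliced Snhg1-211, with 10 exons in 605 bases and no snoRNA, took 16.9% ± 2.50 of TPM and 5.13% of counts, and Snhg1-203 (2348 bases, 6 snoRNAs) 15.7% and 26.4%. Snhg1-209 and Snhg1-214, both typed as retained intron, took 10.4% ± 9.70 and 10.4% ± 3.48 of TPM but 0.723% and 5.25% of counts. Snhg1-209 is 312 bases long and had only 0, 12.0 and 6.51 expected counts in replicates 1, 2 and 3. The spliced Snhg1-207 took 1.97% of alignment-based and 11.6% of read-based TPM.

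**Figure D3:**
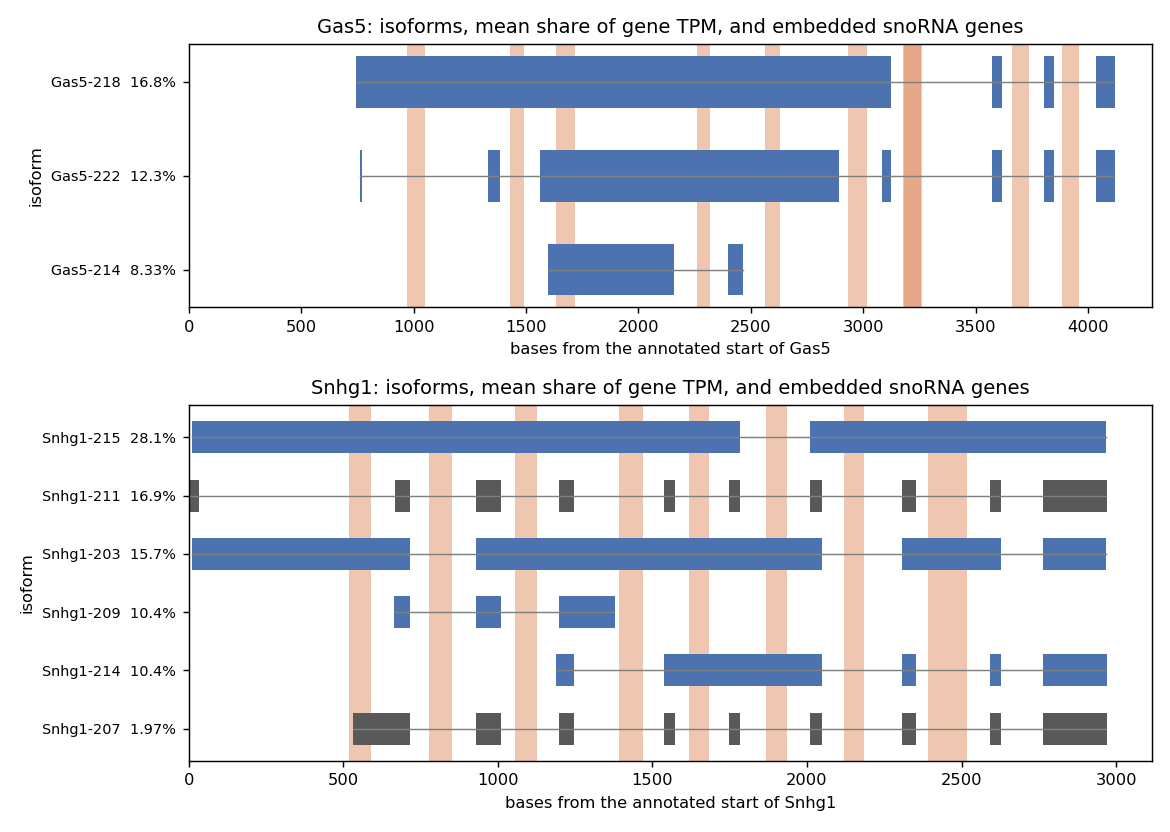
Isoforms of Gas5 (top) and Snhg1 (bottom) that took over 10% of the gene's TPM in either quantification, with exons as boxes (blue for retained-intron isoforms, grey for others), against distance in bases from the annotated gene start. Orange bands are snoRNA genes on the same strand and the percentage is the mean share of gene TPM. The leading isoforms, Gas5-218 at 16.8% and Snhg1-215 at 28.1%, run through 6 and 7 snoRNA genes, while the spliced Snhg1-211 at 16.9% runs through none.

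The other hosts have 3 to 10 isoforms each. Snhg8-202, a single exon of 776 bases that holds Snora24, took 41.1%, 64.6% and 43.2% of Snhg8 TPM, and the spliced Snhg8-201 took 41.1%, 29.9% and 46.7%. The order of the 2 forms thus differed between libraries, and Snhg8-203 took 11.1% ± 6.21. In Snhg6, Snhg6-205 (816 bases, 3 exons) led with 58.4% ± 4.69, ahead of Snhg6-202 at 20.1%, 28.3% and 0% in replicates 1, 2 and 3 and Snhg6-203 at 11.3% ± 8.07. By read-based TPM Snhg6-202 took 22.4%, 37.0% and 22.7%. Its alignment-based shares rest on 6.54, 20.6 and 0 expected counts. In Snhg3, Snhg3-204 took 53.7% ± 4.25 and Snhg3-202 42.4% ± 7.97. In Snhg5, Snhg5-204, which holds 1 of the Snord50 pair whole, led with 33.9% ± 6.43, followed by the retained-intron forms Snhg5-206 (22.4% ± 1.37) and Snhg5-205 (22.3% ± 3.20). The spliced Snhg5-202 took 11.6% ± 10.7. Snhg5-201, which keeps an intron that Snhg5-202 splices out but is not typed as retained intron, took 9.17% ± 8.49. Snhg15-202 had 22.5%, 53.4% and 50.1% of Snhg15 TPM, and Snhg15-203, which holds Snora9, had 49.1%, 33.1% and 26.3%. Snhg15-201 had 28.3%, 4.45% and 3.74%, and Snhg15-204 had 0%, 9.15% and 19.9%. Replicate 1 stood apart in these alignment-based shares, which rest there on 39.5 expected counts for the gene. Read-based TPM put Snhg15-202 first in every library, at 37.8%, 49.5% and 48.5%. It gave Snhg15-204 11.1%, 8.59% and 19.7%. Snhg15-201 was again highest in replicate 1 but held 16.8% in replicate 2. In alignment-based TPM Snhg12 was divided over 5 isoforms above 10%, led by the spliced Snhg12-206 at 21.9% ± 4.70. Assignment among them was unstable, with Snhg12-208 at 0%, 18.4% and 33.3% and Snhg12-210 at 30.2%, 10.6% and 0%. Snhg12-207 and Snhg12-204 took 18.9% ± 9.52 and 15.7% ± 5.05, and Snhg12-209 took 2.70% of alignment-based and 10.4% of read-based TPM. By read-based TPM the leader was Snhg12-208, with 2 snoRNAs whole, at 26.9% ± 4.87, and Snhg12-206 took 14.4%. As a share of expected counts Snhg12-206 took 10.4%, below Snhg12-208 (24.5%), Snhg12-204 (23.3%) and Snhg12-210 (22.3%).

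Because the isoform type does not say whether a snoRNA is inside the retained part, isoforms were also grouped by whether a snoRNA lies whole in 1 of their exons. Such isoforms took 78.1% ± 4.70 of TPM in Snhg12 (8 of its 10 isoforms), 76.9% ± 6.19 in Gas5, 66.9% ± 8.27 in Snhg1, 56.2% ± 4.85 in Snhg5, 49.6% ± 13.0 in Snhg8 and 36.2% ± 11.7 in Snhg15. None of the Snhg12 isoforms is typed as retained intron, so the type alone gives 0% for a gene in which most TPM is on isoforms that include a snoRNA. Snhg3 and Snhg6 have no isoform that holds a whole snoRNA. Snora73a lies partly in an exon of Snhg3-202, which had 35.6%, 40.5% and 51.2% of Snhg3 TPM.

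**Figure D4:**
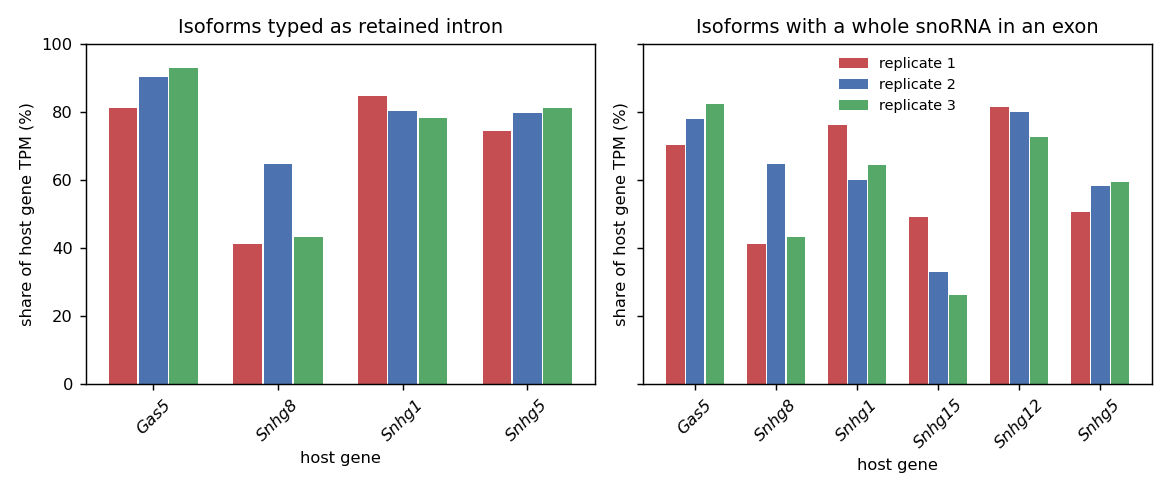
Share of each host gene's TPM, in percent from 0, on isoforms typed as retained intron (left, the 4 genes that have any) and on isoforms with a whole snoRNA inside an exon (right, the 6 genes that have any), one bar per library. Gas5, Snhg1 and Snhg5 lie between 74.5% and 93.0% on the left, Snhg8 is highest in replicate 2 at 64.6%, and Snhg12 appears on the right alone at 72.7% to 81.5%.

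The embedded snoRNAs are the products these genes are known for, and the 2 quantifications measured them very differently. Of the 30 snoRNA genes, Gas5 holds 10, Snhg1 8, Snhg12 5, Snhg3 and Snhg5 2 each, and Snhg6, Snhg8 and Snhg15 1 each. Snord80 of Gas5 (81 and 77 bases) and Snora16a of Snhg12 (137 and 136 bases) are each annotated as overlapping entries. Every entry counts as a gene here, and reads could be divided between such entries. A search found a C box TGATGA near the 5′ end together with a D box CTGA near the 3′ end in 18 of the 30. It found an ACA box before the last 3 bases in 7, and none of these exact letters in 5. Library fragments were selected in a size range given as 250 to 400 in the labels, and 21 of the snoRNAs are under 100 bases. The alignment-based tables give those 21 an effective length of 0 in every library, and 23 of the 30 had 0 expected counts throughout. For 11 of these 23 the read-based tables held more than 3 counts in at least 1 library, so a 0 in the alignment-based tables does not show that the snoRNA is absent. To which feature the alignment-based tables assigned such reads was not tested.

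The sequences of 4 snoRNAs whose values follow are shown here, a near-identical pair and 2 that stood far higher in replicate 1, from GENCODE M21 transcripts (mm10), with the C box TGATGA and D box CTGA, or the ACA box, in capitals. Snora73b (chr4:132352322-132352526, minus strand) and Snora73a (chr4:132352775-132352979, minus strand) are the H/ACA pair of Snhg3, Gm22357 (chr1:161036057-161036139, plus strand) is a C/D box gene of Gas5, and Snord99 (chr4:132310691-132310764, plus strand) is a C/D box gene of Snhg12.
Snora73b: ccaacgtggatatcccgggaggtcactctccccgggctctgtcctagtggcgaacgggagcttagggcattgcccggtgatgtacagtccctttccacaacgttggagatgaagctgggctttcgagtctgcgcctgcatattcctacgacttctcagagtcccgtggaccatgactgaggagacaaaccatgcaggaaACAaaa
Snora73a: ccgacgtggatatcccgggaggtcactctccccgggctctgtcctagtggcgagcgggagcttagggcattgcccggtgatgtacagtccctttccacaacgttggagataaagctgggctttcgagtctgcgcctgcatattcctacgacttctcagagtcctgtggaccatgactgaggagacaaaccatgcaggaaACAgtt
Gm22357: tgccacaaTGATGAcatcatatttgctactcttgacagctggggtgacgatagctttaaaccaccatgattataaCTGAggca
Snord99: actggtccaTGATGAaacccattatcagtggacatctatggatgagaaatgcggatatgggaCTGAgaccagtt
Snora73a and Snora73b are identical at 198 of 205 bases. With Snora73a first and positions counted from 1 at the 5′ end, they differ by G3A, G54A, A111G, T164C, G203A, T204A and T205A. Snord50a and Snord50b of Snhg5 differ by C50A alone over 72 bases. Reads of such near-identical pairs could be divided either way, so the values of each single gene of a pair are uncertain.

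The Snora73 pair had far more counts than its host Snhg3, though it also lies within the span of Rcc1, a gene on the same strand described below. Snora73b had 3531, 1483 and 1601 expected counts in replicates 1, 2 and 3 and Snora73a 2651, 1592 and 1342, against 17.2, 45.3 and 37.1 for Snhg3. The read-based sum of the pair was 8531, 3589 and 3510 counts. Their TPM (4430, 4741 and 4584 for Snora73b) divides by an effective length of 65.0 bases in replicate 1 and 20.1 and 20.3 in the others, so these TPM values are not comparable with its counts across libraries. Snord22 of Snhg1 had 476, 711 and 852 expected counts but was listed at 6990, 0 and 0 TPM, with an effective length of 5.55 bases in replicate 1 and 0 in the other libraries. Snora9 of Snhg15 (4.53, 9.85 and 8.81 expected counts) and Snora61 of Snhg12 (11.4, 4.75 and 5.82) had few counts in the alignment-based tables. Snora24 of Snhg8 was at 0 in all tables.

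By read-based CPM the measurable snoRNAs were highest in replicate 1, where their hosts were lowest. Of the 30 snoRNA genes 12 had more than 3 read-based counts in every library, and all 12 had their highest value in replicate 1. Of 250 other snoRNA genes with as many counts, 61.2% (153 genes) were highest there. The alignment-based tables gave 6 of the embedded genes counts in every library, and scaled to library totals 4 of these 6 were highest in replicate 1. The exceptions were Snord22, at 46.2, 39.9 and 48.5 CPM in replicates 1, 2 and 3, and Snora9, at 0.440, 0.553 and 0.502 CPM, which was lowest in replicate 1. Named after their values were seen, Gm22357 had 1961, 156 and 245 read-based counts, in CPM 16.0-fold higher in replicate 1 than in the mean of the others, and Snord99 had 865, 43.9 and 70.5, 24.8-fold higher. The ratio was 4.54 for Snora73b, 3.35 for Snora73a, 2.38 for Snord87 and 1.80 for Snord22. All 30 together took 0.0725% of read-based counts in replicate 1, 0.0158% in replicate 2 and 0.0173% in replicate 3. Fragment length and the TPM share outside annotated genes of at least 200 bases moved with this difference. Their part in it was not tested.

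**Figure D5:**
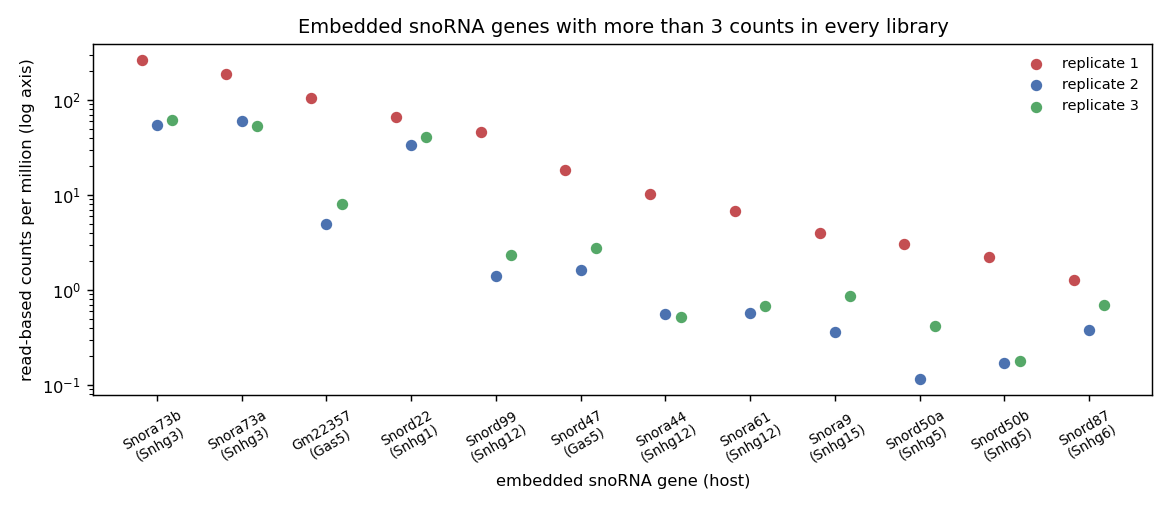
Read-based CPM (log axis) of the 12 embedded snoRNA genes with more than 3 counts in every library, one point per library, with the host gene in brackets. Replicate 1 is the highest point for each of the 12, from 1.80-fold the mean of the others for Snord22 to 24.8-fold for Snord99.

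Genes beside or across the hosts bear on their values, since whether counting used strand is not given in the sources used here. Zbtb37, a zinc finger gene on the opposite strand that overlaps the start of Gas5 by 428 bases, had 8.66 ± 1.51 TPM (SD, n = 3). Rcc1, the chromatin-bound exchange factor of the GTPase Ran, shares 5592 bases with Snhg3 on the same strand and had 4.28 ± 0.98 TPM, and Gm17300 lies inside Snhg3 on the opposite strand at 9.38, 8.85 and 8.82 TPM in replicates 1, 2 and 3, above Snhg3 in replicates 1 and 3 and below it in replicate 2. Reads in the shared parts cannot be told apart by position, and Snhg3 rests on the fewest counts of the 8 genes. Mcmdc2 overlaps Snhg6 by 127 bases on the opposite strand at 1.88 ± 0.37 TPM. Slc3a2, the heavy chain of several amino acid transporters, starts 106 bases from Snhg1 on the opposite strand and had 123, 104 and 92.3 TPM. Its highest value was in replicate 1, where Snhg1 had its lowest. Myo1g, a myosin of blood cells downstream of Snhg15 on the same strand, had 215, 210.4 and 274 TPM, and Gm37362 upstream of Gas5 had 3.99 ± 2.66. Gm9369 near Snhg8 and Gm37634 beyond Gas5 did not reach a TPM of 1, and Gm22985 near Snhg5 was listed at 0.

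Further genes of snoRNA biology were taken as lists. Of 12 other noncoding hosts listed, 9 were in the annotation under that symbol (Snhg4, Snhg7 and Snhg16 were not matched), 5 were expressed and 4 of these 5 were lowest in replicate 1. An annotated snoRNA gene was found inside 7 of the 9, and none was found inside Snhg20. Zfas1, which holds 3 snoRNA genes, had 80.3, 107 and 103 TPM, above 7 of the 8 hosts described here and below Gas5, Snhg20 had 30.6 ± 17.8, Snhg17 had 21.9 ± 9.55 and Snhg18 had no count. All 30 listed protein-coding snoRNA hosts, mainly ribosomal protein and translation genes, were expressed, with a median of 37.3 ± 11.0 TPM, and 26 of the 30 were lowest in replicate 1, beside 63.6% of all expressed protein-coding genes. The same share stands beside the counts of the lists that follow. Over annotated genes of every type 12031 of 55536 were expressed, and the share over annotated protein-coding genes alone is not given here. The highest of the 30 protein-coding hosts were the translation factor genes Eif4g2 (434 TPM), Eif4a2 (269) and Eif4a1 (224). The lowest of them was Dkc1 (6.69), the pseudouridine synthase of H/ACA particles.

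Of 20 genes for snoRNA particle proteins and their assembly 18 were expressed and 16 of these 18 were lowest in replicate 1. Tgs1, which methylates the cap of small nuclear and nucleolar RNAs, led with 52.9 ± 13.8 TPM, followed by the C/D box core proteins Nop56 (38.5 ± 15.7) and the methyltransferase gene Fbl (13.8 ± 4.56), and the H/ACA core protein gene Nop10 was lowest at 1.28 ± 0.38. All 15 nonsense-mediated decay genes were expressed and 12 were lowest in replicate 1, led by the kinase gene Smg1 (152 ± 43.5), the exonuclease gene Xrn1 (71.5 ± 17.1) and Smg5 (50.4 ± 16.2), with Magoh of the exon junction complex lowest (2.85 ± 1.00). All 9 genes of TOP translation control were expressed and 7 were lowest in replicate 1. Larp1, which binds TOP mRNA, led with 66.9 ± 9.25 and was highest in replicate 1, followed by Rptor (38.6 ± 12.3) and Tia1 (37.7 ± 19.7), with Eif4ebp1 lowest (1.52 ± 0.13). Of the macrophage markers 2 of 10 were lowest in replicate 1.

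The long noncoding genes whose levels were most like the per-library median of the 8 hosts, by Euclidean distance of log2(TPM + 0.1) over 3 libraries among 10147 candidates, were 1810032O08Rik (distance 0.089), Gm43728 (0.26) and Gm42664 (0.29). Their TPM in replicates 1, 2 and 3 was 7.75, 16.7 and 19.2 for 1810032O08Rik, 9.14, 15.9 and 16.1 for Gm43728 and 8.24, 20.0 and 17.9 for Gm42664.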

How the data were processed

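The files hold 3 rRNA-depleted total RNA libraries of 1 condition. Per library, the authors deposited gene and transcript tables of estimated (expected) counts and TPM, with RSEM's columns per the file headers, and a transcript table of estimated counts and TPM with kallisto's columns. The build is mm10 with GENCODE M21, per the deposited notes. Use of strand, program settings and program versions were not given in the sources used here. The intervals around TPM are the authors' own, deposited with no stated level.

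Gene symbols, types and positions came from GENCODE M21. Numeric and spike-in rows were left out of gene counts and scaling. Expressed means 1 TPM or more in each of 3 libraries. Read-based TPM was summed per gene. Expected counts, rounded, were scaled by TMM (edgeR 4.0.16) or DESeq2 1.42.0 size factors over genes of at least 10 summed counts, in R 4.3.3. Logs used TPM + 0.1 or CPM + 0.5. Shares were taken within each library and averaged. Total counts of 10293545, 17820066 and 17548564 set the depth, and genes near 20 to 40 counts, such as Snhg3, are the least precise. With 1 group there is no test between conditions; neighbours in level were compared by an exact sign-flip test. Code was tested on simulated data. Python 3.11.15 with pandas 2.3.3 was used.

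Members and lists were chosen with earlier results of these data known. Named were all members, isoforms above 10% of their gene's TPM on average in either quantification, the 5 highest embedded snoRNAs by TPM and the highest per host, genes that overlap or start within 5000 bases, the 3 highest and the lowest of each list, and the 3 closest long noncoding genes. Alternatives were TPM thresholds of 0.5 and 5, pseudocounts of 0.01 and 1, read-based values, shares of counts, other scaling, and leaving out each replicate. TPM was also rescaled over genes of at least 200 bases of effective length outside the mitochondrial chromosome.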

Additional observations from a re-analysis of the deposited data

How the results depend on the processing

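The 8 genes were all expressed at a threshold of 0.5 TPM, with read-based TPM and without each replicate in turn, and 7 were at a threshold of 5 TPM, which Snhg3 missed in replicate 1. Of 105 alternative values 22 moved by more than the spread between replicates. Counts of neighbour pairs with one sign in all libraries used were 5 or 6 of 7. Rescaling TPM over genes of at least 200 bases of effective length outside the mitochondrial chromosome raised the median level from 3.77 to 5.08 on the log2 scale. It raised Gas5 from 175 to 422 TPM. Median retained-intron shares were 86.7% by expected counts, 75.5% by read-based TPM and 74.3% as a mean over the 4 genes, against 79.2%. The median share of the leading isoform was 37.4% of TPM and 50.1% of expected counts. The median replicate SD was 0.71 on log2(TPM + 0.1), and leaving out 1 replicate gave 0.13 (without replicate 1) to 0.49 (without replicate 2), against 0.35. Read-based TPM put Snhg12 at 9.27, against 13.9. Replicate 1 was the lowest library for 8 of 8 genes under all 4 other scalings tried. The alternatives on the order of the genes, on the snoRNA-holding shares and on which library was lowest were added after the data were seen. Depth limits Snhg3 most, at 17.2 counts in replicate 1.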
